A study of Mus musculus with 8 samples.

Results

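The 10 genes described here are markers in common use for fibro-adipogenic progenitors (FAPs) of skeletal muscle, namely Pdgfra, Dcn, Lum, Gsn, Ly6a, Dpt, Pi16, Dpp4, Clec3b and Smoc2. Their membership was set by gene name, with no threshold on a measured value, but with earlier results of these data known. They are 10 of the 36047 genes in the files, and all 10 were among the 17997 genes abundant enough to be tested. RNA-Seq was done on muscle stem cells (MuSCs) of male mice aged 5 to 6 months that carried Pax7-CreERT2, a tamoxifen-dependent Cre driven by Pax7, and the Rosa26 nTnG reporter, which changes nuclear tdTomato to nuclear GFP in Cre-expressing cells and their descendants. All mice received tamoxifen. For 8 weeks 3 mice ate a vitamin A-free (VA-free) diet and 2 mice ate normal chow (CTRL), and GFP-positive, DAPI-negative cells were then sorted from gastrocnemius and quadriceps. The RNA of a mouse was divided into technical portions A and B on extraction, and the 8 libraries analysed were 1B, 2A, 3A and 3B of the VA-free diet and 1A, 1B, 2A and 2B of the control diet. The methods give no antibody against other cell types for this sort, and the gates shown for it separate GFP-positive from tdTomato-positive cells.

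FAPs are mesenchymal cells that lie between the fibers of skeletal muscle and around its vessels, apart from the MuSC niche beneath the basal lamina. They secrete collagens, proteoglycans and growth factors, support MuSCs after injury, and can turn into adipocytes or matrix-producing fibroblasts when repair fails. PDGFRα and Sca-1, the product of Ly6a, are the surface proteins by which FAPs are usually sorted. A Pi16 and Dpp4 expressing form is regarded as a stem-like connective tissue fibroblast, and a form rich in Lum and Smoc2 as one specialised in matrix.

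Libraries held 44831232 to 88650428 estimated counts, with a median of 52290679. A normalized level is given as CPM, counts scaled to a common library size, after TMM normalization, which corrects for differences in library composition, and a fold change is VA-free over CTRL on the log2 scale, with its standard error (SE). The diets were compared over mice with edgeR's quasi-likelihood test, libraries of a mouse having been added, and a gene was called when its Benjamini-Hochberg adjusted p over all 17997 genes was below 0.05. Of all genes tested, 41.4% were called, 22.5% as lower and 18.9% as higher in VA-free mice, so that a call alone did not set a gene apart. The count called was 7459, and 4476 of 17769 tested without CTRL 2B. CTRL 2A and CTRL 2B, although from 1 animal, differed by a median of 0.47 (absolute difference of log2(CPM + 1)) over all genes. The median was 0.22 between CTRL 1A and 1B and 0.11 between VA-free 3A and 3B. The labels give no batch or date for the mice.

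Of the 10 genes, 8 fell on the VA-free diet, none rose, and Gsn and Dpt were not called. The 8 that fell were the receptor gene Pdgfra, the surface protein genes Ly6a and Dpp4, the secreted protein genes Pi16, Clec3b and Smoc2 and the proteoglycan genes Dcn and Lum. All 8 had a log2 fold change below −2, a drop shared by 7.52% of all genes tested, and in all 8 every VA-free library lay below every CTRL library, as it did for 21.4% of all genes. The 10 genes had a median log2 fold change of −3.59, beside 0.00296 over all genes, of which 5 percent lay below −3.04 and 1 percent below −5.16. All 8 were also called as lower when any 1 VA-free mouse or any 1 library was left out, CTRL 2A and 2B included. Without either CTRL mouse only 1 CTRL mouse remained, and the fold changes of all 8 stayed negative. In bulk RNA, fewer cells of a type and less RNA per cell cannot be told apart. MuSC marker genes moved the other way, with a summed level of 8545 to 9590 CPM in the VA-free libraries and 3460 to 5849 CPM in the CTRL libraries, and the part of that difference in the levels of the 10 genes was not tested.

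**Figure D1:**
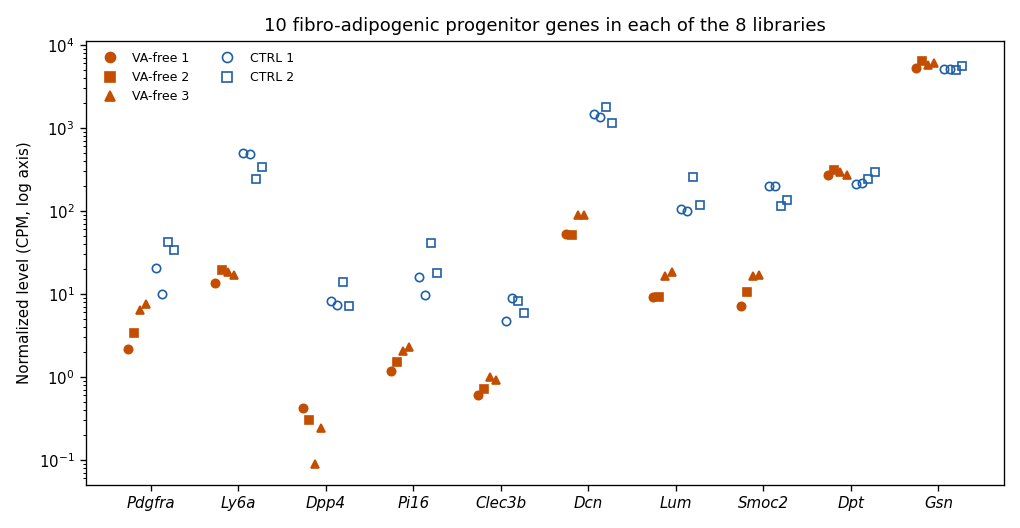
Normalized level in CPM, on a log axis, of each of the 10 genes in each of the 8 libraries (filled orange, VA-free; open blue, CTRL; the symbol gives the mouse). For 8 genes every filled point lies below every open point, with Dpp4 between 0.0881 and 0.427 CPM on the VA-free diet and between 7.11 and 13.7 CPM on the control diet, whereas the points of Dpt and Gsn interleave.

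The sequences just upstream of 3 members are shown because these genes stand for the 3 patterns in the data. Pdgfra fell and changed the transcript to which its reads were assigned, Dpp4 had the lowest fold change, and Gsn stayed high on both diets. RefSeq promoter entries of build GRCm38.p6 were found for 5 of the 10 genes, Pdgfra, Pi16, Dpp4, Gsn and Dpt, with 3 windows at different starts for Gsn, of which the one before the start of its main transcript is shown. Each line holds the 250 bases before an annotated start, 5′ to 3′ on the strand of the gene, with every match to 1 of 5 short motifs in capitals. The motifs, searched on both strands, were the TATA box TATAAA, the promoter element CCAAT found near many starts, the GC box GGGCGG to which Sp1 binds, the E-box CAGCTG of the kind that myogenic factors bind, and AGGTCA, the core of the elements that retinoic acid receptors bind. The Pdgfra window is chr5:75152001-75152250 on the plus strand, the Dpp4 window chr2:62412232-62412481 on the minus strand, and the Gsn window chr2:35282130-35282379 on the plus strand.
Pdgfra: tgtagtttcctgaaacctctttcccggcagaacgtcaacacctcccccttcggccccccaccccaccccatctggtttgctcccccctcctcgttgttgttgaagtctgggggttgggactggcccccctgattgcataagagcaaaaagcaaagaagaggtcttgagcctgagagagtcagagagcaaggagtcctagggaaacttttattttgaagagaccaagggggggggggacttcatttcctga
Dpp4: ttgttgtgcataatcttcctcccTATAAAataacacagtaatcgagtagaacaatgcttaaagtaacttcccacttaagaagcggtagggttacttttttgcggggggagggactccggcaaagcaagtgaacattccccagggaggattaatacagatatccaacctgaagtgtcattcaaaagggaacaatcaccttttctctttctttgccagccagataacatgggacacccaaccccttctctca
Gsn: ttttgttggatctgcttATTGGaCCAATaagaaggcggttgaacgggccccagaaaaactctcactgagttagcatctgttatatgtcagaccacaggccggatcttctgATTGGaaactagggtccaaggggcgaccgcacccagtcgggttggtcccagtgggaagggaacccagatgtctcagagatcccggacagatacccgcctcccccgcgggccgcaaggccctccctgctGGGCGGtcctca
The Pdgfra window held none of the 5 motifs. The Dpp4 window held TATAAA with its first base 227 bases before the start, and the Gsn window held CCAAT 3 times, 2 of them on the opposite strand as ATTGG, and GGGCGG with its first base 12 bases before the start. The other Gsn windows, chr2:35256109-35256358 and chr2:35266494-35266743, each held GGGCGG and CAGCTG, and the latter also CCAAT. No AGGTCA was found in the windows of the 5 genes. Over all 32851 RefSeq windows of 250 bases, TATAAA occurred in 12.4%, CCAAT in 33.8%, GGGCGG in 32.7%, CAGCTG in 13.0% and AGGTCA in 14.0%. A match is a description of these letters and does not show binding.

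Pdgfra encodes PDGFRα, the receptor tyrosine kinase for PDGF ligands that defines FAPs. Its gene is at chr5:75152292-75198215 on the plus strand. Pdgfra was at 2.19 CPM in VA-free library 1B, 3.35 CPM in 2A, 6.37 CPM in 3A and 7.49 CPM in 3B, and at 20.5 CPM in CTRL 1A, 10.1 CPM in 1B, 42.6 CPM in 2A and 33.8 CPM in 2B. The diets did not overlap, but the lowest CTRL library was only 1.34 times the highest VA-free library, the narrowest gap of the 8 genes. Means over mice of 4.21 ± 2.51 CPM (SD, n = 3) and 26.4 ± 14.5 CPM (SD, n = 2) gave a log2 fold change of −2.64 (SE 0.53, edgeR adjusted p = 0.00723). The fold change was −3.25 without VA-free mouse 3, where Pdgfra was still called. It was −1.94 without CTRL mouse 2, which left CTRL mouse 1 alone. In TPM, the level per transcript length, Pdgfra ran from 0.635 to 2.48 TPM in VA-free and from 2.26 to 9.01 TPM in CTRL libraries, so that on this scale the diets overlapped.

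Ly6a encodes Sca-1, a small GPI-anchored surface protein of FAPs, of most endothelial cells and of several progenitor cells. Ly6a lies at chr15:74994877-74998031 on the minus strand. It was at 13.5, 19.6, 18.2 and 17.0 CPM in VA-free libraries 1B, 2A, 3A and 3B, and at 498, 488, 244 and 336 CPM in CTRL 1A, 1B, 2A and 2B. Even the lowest CTRL library, 2A, was 12.5 times the highest VA-free library. The log2 fold change was −4.54 (SE 0.28, edgeR adjusted p = 0.000226), and the mean of 17.1 ± 2.99 CPM (SD, n = 3) was 23.2-fold lower than that of 397 ± 161 CPM (SD, n = 2). Ly6 genes are similar in sequence and neighbours on the chromosome, so that reads could be divided among them, and Ly6c1 (log2 fold change −4.24, SE 0.30) and Ly6e (−2.44, SE 0.25) fell as well in the same fit.

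Dpp4, at chr2:62330073-62412231 on the minus strand, encodes the surface dipeptidyl peptidase CD26. It had the lowest fold change of the members, close to those of Ly6a and Dcn, and was also the least abundant per length. Its level was 0.427, 0.304, 0.0881 and 0.241 CPM in VA-free libraries 1B, 2A, 3A and 3B, from 40, 17, 4 and 12 estimated counts. In CTRL 1A, 1B, 2A and 2B it was 8.19, 7.25, 13.7 and 7.11 CPM, from 413, 320, 659 and 383 counts. The log2 fold change was −4.88 (SE 0.42, edgeR adjusted p = 0.000389), with means over mice of 0.304 ± 0.133 CPM (SD, n = 3) and 8.95 ± 1.31 CPM (SD, n = 2). The low VA-free counts limit how well the size of this fall is known, which shrank to −1.98 on the log2(TPM + 1) scale.

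Pi16 encodes a secreted protein of the CAP superfamily that marks the same stem-like fibroblasts as Dpp4. The gene is at chr17:29317680-29330593 on the plus strand. Levels of 1.18, 1.5, 2.05 and 2.29 CPM were found in VA-free libraries 1B, 2A, 3A and 3B, beside 15.8, 9.66, 40.5 and 17.8 CPM in CTRL 1A, 1B, 2A and 2B. CTRL 2A stood above the other CTRL libraries, yet the lowest of them was still 4.21 times the highest VA-free library. Means of 1.64 ± 0.51 CPM (SD, n = 3) and 20.5 ± 10.04 CPM (SD, n = 2) gave a log2 fold change of −3.64 (SE 0.39, edgeR adjusted p = 0.000663). The value was −3.03 without CTRL mouse 2, which left CTRL mouse 1 alone.

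Clec3b encodes tetranectin, a secreted C-type lectin domain protein that binds plasminogen, and lies at chr9:123150946-123157432 on the plus strand. It was scarce on both diets, at 0.608, 0.716, 0.991 and 0.926 CPM in VA-free libraries 1B, 2A, 3A and 3B and at 4.66, 8.84, 8.20 and 5.83 CPM in CTRL 1A, 1B, 2A and 2B. The CTRL mice, at 6.84 and 6.71 CPM once their libraries were added, were closer to each other than the libraries of either mouse. The log2 fold change was −3.13 (SE 0.30, edgeR adjusted p = 0.0005), with an 8.78-fold difference between means of 0.77 ± 0.179 CPM (SD, n = 3) and 6.78 ± 0.0917 CPM (SD, n = 2).

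Dcn encodes decorin, a small leucine-rich proteoglycan that coats collagen fibrils and binds TGF-β, and is at chr10:97479609-97518143 on the plus strand. Among the 8 genes that fell it was the most abundant in the CTRL libraries, with 1476, 1342, 1790 and 1132 CPM in 1A, 1B, 2A and 2B. In VA-free libraries 1B, 2A, 3A and 3B it was at 53.0, 50.7, 88.0 and 88.6 CPM. The highest VA-free library was 12.8-fold below the lowest CTRL library. Decorin RNA averaged 64.8 ± 21.4 CPM (SD, n = 3) against 1428 ± 48.7 CPM (SD, n = 2). The fitted log2 value for the difference was −4.46 (SE 0.27, edgeR adjusted p = 0.000226).

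Lum encodes lumican, a proteoglycan of the same family that also controls the spacing of collagen fibrils, and lies beside Dcn at chr10:97565128-97572703 on the plus strand. It was at 9.28, 9.22, 16.5 and 18.2 CPM in VA-free libraries 1B, 2A, 3A and 3B and at 103.9, 100.2, 259 and 117 CPM in CTRL 1A, 1B, 2A and 2B. CTRL 2A was far above the other CTRL libraries, including 2B of the same mouse. The log2 fold change was −3.54 (SE 0.35, edgeR adjusted p = 0.000512) between means of 12.1 ± 4.78 CPM (SD, n = 3) and 142 ± 50.9 CPM (SD, n = 2).

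Smoc2 encodes a secreted calcium-binding protein of the SPARC family and is at chr17:14279506-14404790 on the plus strand. Its level was 7.12, 10.5, 16.2 and 16.8 CPM in VA-free libraries 1B, 2A, 3A and 3B and 197, 197, 115 and 137 CPM in CTRL 1A, 1B, 2A and 2B. Here CTRL mouse 1 was the higher of the CTRL mice, as for Ly6a, whereas CTRL mouse 2 was higher for Pdgfra, Pi16, Lum and Dpp4. Means of 11.5 ± 4.80 CPM (SD, n = 3) and 163 ± 57.7 CPM (SD, n = 2) gave a log2 fold change of −3.82 (SE 0.37, edgeR adjusted p = 0.000506).

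Gsn and Dpt, the members with the highest levels on the VA-free diet, did not follow the others. Gsn encodes gelsolin, which severs and caps actin filaments and also exists as a secreted form, and lies at chr2:35256380-35307892 on the plus strand. It was at 5207, 6440, 5663 and 6116 CPM in VA-free libraries 1B, 2A, 3A and 3B and at 5174, 5143, 4943 and 5523 CPM in CTRL 1A, 1B, 2A and 2B, so that the diets overlapped. The log2 fold change was 0.19 (SE 0.14, edgeR adjusted p = 0.321) between means of 5918 ± 566 CPM (SD, n = 3) and 5206 ± 187 CPM (SD, n = 2). Dpt encodes dermatopontin, an extracellular matrix protein that binds decorin, and is at chr1:164796644-164824266 on the plus strand. It was at 270, 314, 293 and 274 CPM in the VA-free libraries, in the order given above, and at 209, 216, 240 and 290 CPM in CTRL 1A, 1B, 2A and 2B, where 2B reached into the VA-free range. The log2 fold change of Dpt was 0.29 (SE 0.13, edgeR adjusted p = 0.11), with means of 292 ± 20.2 CPM (SD, n = 3) and 238 ± 26.8 CPM (SD, n = 2).

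On the TPM scale, where each library is scaled to the same total after division by transcript length, both of these genes lay higher on the VA-free diet in every library. Gsn was at 4209 to 4812 TPM against 2314 to 3256 TPM, and Dpt at 296 to 343 TPM against 168 to 257 TPM. With limma on log2(TPM + 1), a scale on which the median of all genes shifted to 0.19, the fold changes of Gsn (0.66, adjusted p = 0.0296) and Dpt (0.73, adjusted p = 0.00371) passed the threshold. Over all alternatives the adjusted p ran from 0.0157 to 0.969 for Gsn and from 0.00311 to 0.328 for Dpt. The direction of Gsn turned in 1 of the 24 alternative settings, to −0.01 (adjusted p = 0.969) once the trend of fold change on gene length had been removed, so that whether Gsn or Dpt differed between the diets depended on the scale, unlike the fall of the other 8.

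**Figure D2:**
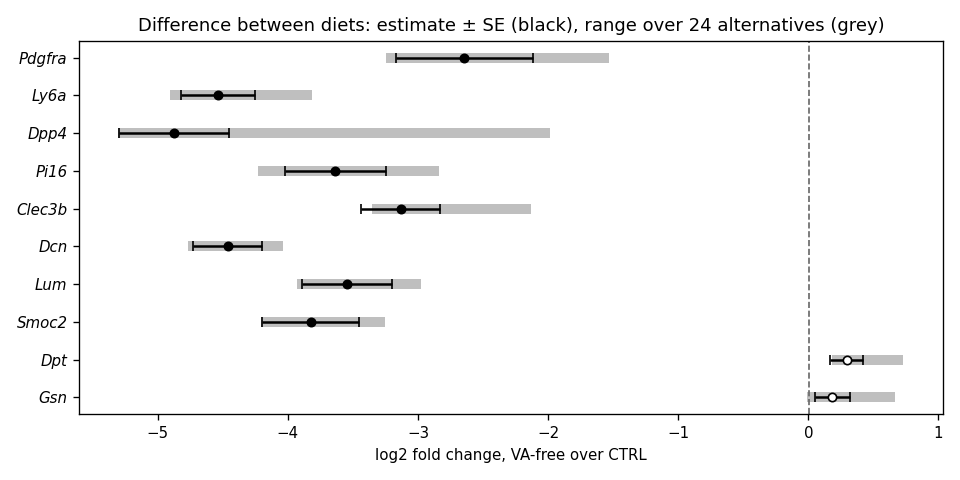
Log2 fold change of each gene, VA-free over CTRL, with its standard error (black; filled where the adjusted p was below 0.05) and the range of the fold change over 24 alternative settings (grey bar); the dashed line is the median of all genes tested. The 8 called genes lie between −4.88 and −2.64 with grey bars wholly below 0, while Dpt (0.29) and Gsn (0.19) lie just above 0 and the grey bar of Gsn reaches −0.01.

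Compared per length, the order of the members changed with the diet. By median TPM over CTRL libraries the order was Gsn (2845 TPM), Dcn (1125 TPM), Ly6a (749 TPM), Dpt (175 TPM), Smoc2 (83.8 TPM), Lum (65.2 TPM), Pi16 (12.0 TPM), Clec3b (9.93 TPM), Pdgfra (6.89 TPM) and Dpp4 (3.80 TPM). Over VA-free libraries it was Gsn (4370 TPM), Dpt (314 TPM), Dcn (76.7 TPM), Ly6a (40.8 TPM), Lum (9.93 TPM), Smoc2 (8.67 TPM), Pdgfra (1.81 TPM), Clec3b (1.60 TPM), Pi16 (0.958 TPM) and Dpp4 (0.185 TPM). Genes whose libraries overlapped on the control diet were Smoc2 with Lum, Pi16 with Clec3b and with Pdgfra, Clec3b with Pdgfra, and Pdgfra with Dpp4. On the VA-free diet Lum overlapped with Smoc2, and the levels of Pdgfra, Clec3b and Pi16 overlapped with one another. Gsn was the highest member in every library of both diets, and Dpt passed Dcn and Ly6a only in the VA-free libraries.

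Among the genes that fell, the ratio to Pdgfra separated the diets only for Dcn and Dpp4. In CPM, Dcn was 33.5 to 133 times Pdgfra in CTRL and 11.8 to 24.3 times in VA-free libraries, and Dpp4 was 0.21 to 0.721 times Pdgfra in CTRL and 0.0138 to 0.195 times in VA-free libraries, both without overlap. Gsn went the opposite way, from 116 to 511 times Pdgfra in CTRL to 817 to 2381 times in VA-free libraries, and so did Dpt, from 5.63 to 21.5 times to 36.6 to 123 times. For Lum, Ly6a, Pi16, Clec3b and Smoc2 the ratios to Pdgfra overlapped between the diets. Pdgfra itself was 2.03 times as high in CTRL 1A as in CTRL 1B. No ratio was tested, and the share of all genes without overlap in this ratio was not computed.

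The VA-free mice also differed among themselves. VA-free mouse 3 had the highest level of the VA-free mice for 6 of the 10 genes, Pdgfra, Dcn, Lum, Pi16, Clec3b and Smoc2, at 1.45 to 2.52 times the mean of mice 1 and 2. For Dpp4 it was the lowest, at 0.46 times that mean, from 16 counts in its 2 libraries. CTRL mouse 2 was 2.27 times CTRL mouse 1 for Pdgfra, 2.06 times for Pi16 and 1.68 times for Lum, but 0.554 times for Ly6a and 0.6 times for Smoc2. For each of the 8 genes that fell, these ratios between mice of one diet were smaller than the ratio between the diets.

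Libraries A and B of 1 mouse show how far the technical steps alone spread these genes. For VA-free mouse 3 the log2 ratio of A to B lay between −1.45 (Dpp4, 4 and 12 counts) and 0.10, and for 4 of 10 genes its 95% counting interval excluded 0. The interval excluded 0 for 7 of 10 genes in CTRL mouse 1, where Pdgfra was 2.03 times as high in A as in B and Clec3b 0.527 times. It excluded 0 for all 10 in CTRL mouse 2, where A exceeded B for Pi16 (2.28 times), Lum (2.20 times), Dpp4 (1.93 times), Dcn (1.58 times), Clec3b (1.41 times) and Pdgfra (1.26 times) and was below B for Ly6a, Smoc2, Dpt and Gsn. Over the 10 genes the median absolute ratio was 0.478 on the log2 scale in CTRL mouse 2, beside 0.473 over all genes. It was 0.0954 in CTRL mouse 1, beside 0.221, and 0.105 in VA-free mouse 3, beside 0.113. The values over all genes are differences of log2(CPM + 1), where the added 1 shrinks the ratios of scarce genes. Nothing was added for the 10 genes, so the paired values are not on the same measure. For Pdgfra, the 2.03-fold difference between the libraries of CTRL mouse 1 was larger than the 1.34-fold gap between the lowest CTRL and the highest VA-free library. The intervals are exact binomial ones and cover counting error only. They narrow as counts rise, so that the interval of Gsn excluded 0 in CTRL mouse 1 at a ratio of 1.006. The share of all genes whose interval excluded 0 was not computed.

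**Figure D3:**
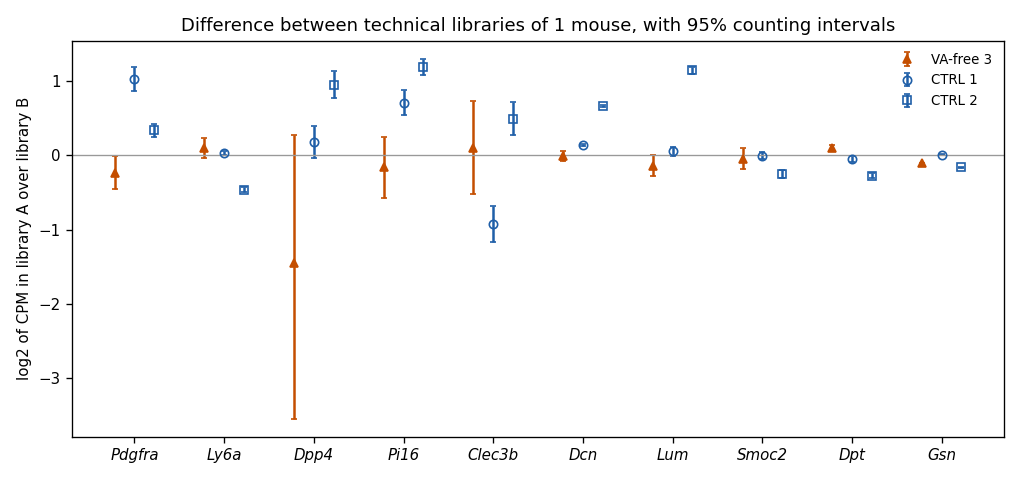
Log2 ratio of the level in library A over library B of the same mouse for each gene, with 95% intervals from counting error (orange triangles, VA-free 3; blue circles, CTRL 1; blue squares, CTRL 2). The values of VA-free 3 lie near 0 except for Dpp4 at −1.45, whose interval is wide, while CTRL 2 runs from −0.46 (Ly6a) to 1.19 (Pi16).

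The files hold an estimate for each annotated transcript, which shows from which forms of each gene the counts came. Shares of 75 bp single-end reads rest on the few bases that forms do not share, so they are model estimates, given here without a test. Pdgfra-201, which begins at position 75152306 of chromosome 5, held 82.9% to 90.2% of the Pdgfra count in CTRL libraries but 0.0709% to 28.8% in VA-free libraries. Pdgfra-202 begins further downstream at position 75155899, has a first exon of 451 bases that is in no other transcript, and encodes the same 1089 residues. It held 4.41% to 10.4% of the count in CTRL libraries and 60.8% to 93.1% in VA-free libraries. In CPM, Pdgfra-202 overlapped between the diets (1.67, 3.12, 4.27 and 4.55 CPM in VA-free libraries 1B, 2A, 3A and 3B, and 1.61, 0.444, 4.42 and 1.61 CPM in CTRL 1A, 1B, 2A and 2B). Pdgfra-201 did not, at 0.00237 to 1.84 CPM on the VA-free diet and 9.08 to 35.3 CPM on the control diet. By these estimates the fall of the gene lay mostly in the form with the upstream start. Pdgfra-201 has only 14 bases that are in no other transcript. It held 0.132 to 87.5 estimated counts in the VA-free libraries.

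In Pi16 too a form kept a level that overlapped between the diets, but here it was the form with the upstream start. Pi16-206, which begins upstream of the other forms shown, at position 29317680 of chromosome 17, was estimated at 0.776, 0.78, 0.874 and 0.684 CPM in VA-free libraries 1B, 2A, 3A and 3B and at 0.953, 0.763, 0.933 and 1.40 CPM in CTRL 1A, 1B, 2A and 2B. The diets overlapped, and its share of the Pi16 count was 29.9% to 65.4% in VA-free and 2.30% to 7.91% in CTRL libraries. The VA-free shares rest on few counts, 111, 84, 93 and 114 for the gene in 1B, 2A, 3A and 3B. Pi16-203, annotated as a retained intron form, and the protein-coding Pi16-201 did not overlap, at 0 to 0.756 CPM and 0 to 0.581 CPM in VA-free and 4.19 to 18.4 CPM and 3.43 to 14.1 CPM in CTRL libraries. The Gsn count stayed mostly with 1 form on both diets, Gsn-201, which begins at position 35282380 of chromosome 2, just after the window printed above, and held 85.9% to 87.5% in VA-free and 88.5% to 89.6% in CTRL libraries. Its protein has 780 residues, against 731 for Gsn-205, which begins at position 35256380 and held 5.80% to 7.84% of the count over the 8 libraries. The share of Gsn-201 did not overlap between the diets. Gsn-207 did not overlap either, with 2.77% to 5.23% in VA-free and 1.48% to 2.51% in CTRL libraries. How many transcripts of all genes lack overlap was not computed. Dcn-201 held 87.05% to 95.99% of Dcn and Smoc2-201 80.3% to 100% of Smoc2 over both diets.

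**Figure D4:**
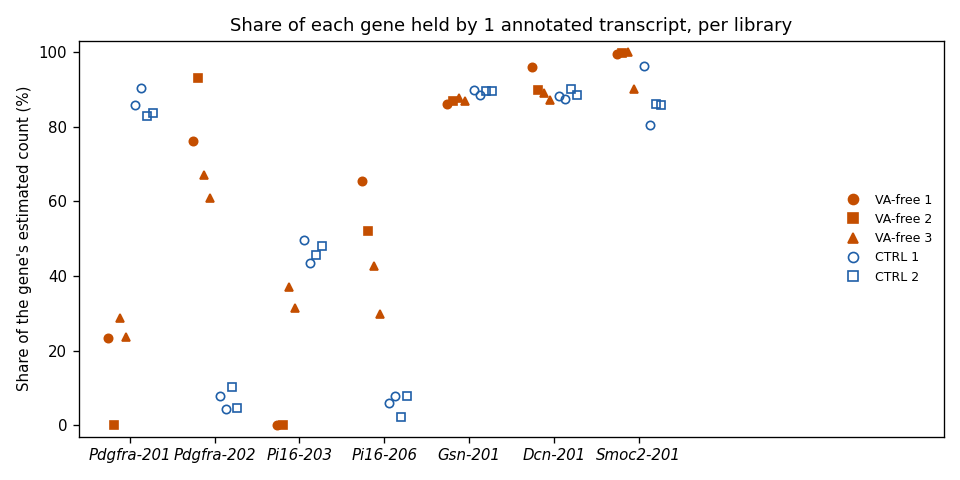
Share of a gene's estimated count, in percent, held by each of 7 annotated transcripts in each library (filled orange, VA-free; open blue, CTRL; the symbol gives the mouse). Pdgfra-201 holds over 80% in the CTRL libraries and under 30% in the VA-free ones, Pdgfra-202 and Pi16-206 hold more in the VA-free libraries, and Gsn-201 stays between 85.9% and 89.6%.

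Other genes used to describe FAPs were mixed. Over 3 lists of FAP and fibroblast genes, each gene counted once, 46 were tested, of which 26 fell, 10 rose and 10 were not called, with a median log2 fold change of −1.02, and 15 fell below −2. The general fibroblast genes included Mfap5, a microfibril protein, which fell from 111 ± 31.8 CPM to 2.61 ± 0.797 CPM (log2 fold change −5.42), and the transcription factor gene Meox1, which fell from 17.2 ± 5.93 CPM to 0.737 ± 0.102 CPM (−4.53). The protease gene Htra3 rose from 547 ± 101 CPM to 1101 ± 71.6 CPM (1.01), the fibulin gene Fbln2 rose (0.76), and Gpx3, a secreted glutathione peroxidase, was at 4945 ± 958 CPM in CTRL and 5568 ± 752 CPM in VA-free mice and was not called (adjusted p = 0.489). In this list 12 of 23 tested genes fell and 8 rose.

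Among companions of Pi16 and Dpp4 in stem-like fibroblasts, 9 of 15 fell and 3 rose. Procr, the protein C receptor gene, fell by 4.52 on the log2 scale, while the fibrillin gene Fbn1 rose by 1.57 and the chemokine receptor gene Ackr3 by 0.82. Among companions of Lum and Smoc2, 8 of 12 fell and none rose, with Apod, an apolipoprotein gene, at 239 ± 19.4 CPM in CTRL and 5.73 ± 0.908 CPM in VA-free mice (log2 fold change −5.39) and the proenkephalin gene Penk at −4.71. Vwa1, at 300 ± 56.8 CPM and 390 ± 23.1 CPM, was not called (adjusted p = 0.0844).

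Genes linked to the adipogenic and fibrogenic fates of FAPs were also compared, although the fate of FAPs was not measured. The adipocyte hormone genes Adipoq and Lep, named for their role, were below the expression filter, at means of 0.0379 and 0 CPM in VA-free mice and 0.0995 and 0 CPM in CTRL mice. Of 7 adipogenic genes tested, 3 fell and 1 rose. Fabp4, a fatty acid binding protein gene of adipocytes and also of endothelial cells, fell from 1367 ± 940 CPM to 49.9 ± 6.79 CPM (log2 fold change −4.77), and Pparg, the adipogenic nuclear receptor gene, from 24.5 ± 5.58 CPM to 4.33 ± 0.863 CPM (−2.50). Lpl, which encodes lipoprotein lipase, was at 217 ± 38.1 CPM and 220 ± 13.0 CPM and was not called (adjusted p = 0.928). Of 18 fibrogenic genes, 6 fell and 6 rose. The collagen genes Col5a1 (log2 fold change 2.40) and Col3a1 (1.38) rose, Col3a1 from 4304 ± 777 CPM to 11222 ± 558 CPM, whereas periostin, Postn, fell from 136 ± 11.7 CPM to 9.02 ± 4.24 CPM (−3.91).

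The partners and relatives of the members did not move as one. Of the PDGF ligands and other receptors, Pdgfd (log2 fold change −4.55, 32.7 ± 1.96 CPM to 1.39 ± 0.343 CPM), Pdgfrb (−1.80) and Pdgfb (−1.01) fell. Libraries of the diets overlapped for Pdgfrb and Pdgfb. Pdgfrb was at 11.1 CPM in CTRL 2A, below every VA-free library (16.2 to 27.9 CPM). Pdgfb was at 3.79 CPM in CTRL 1B, within the VA-free range of 3.24 to 4.09 CPM. Pdgfa (−0.35), Pdgfc (0.24) and Pdgfrl (0.11) were not called. Of 12 other small leucine-rich proteoglycan genes, 7 fell and 1 rose, the one that rose being Prelp, from 727 ± 51.0 CPM to 2222 ± 187 CPM (log2 fold change 1.61). Kera (−5.81), Chad (−5.42) and Fmod (−5.06), which are also in the list of tenocyte markers, had lower fold changes than Dcn and Lum. So had Aspn (−5.16), named here because it is not in the tenocyte list. These differences were not tested. Ogn was not called (−0.34, adjusted p = 0.175). Among 30 other relatives of the members, 12 fell and 7 rose, with a median of 0.06. Errors are SD over 3 VA-free and 2 CTRL mice, and the calls are those of edgeR's test as above.

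Marker genes of other cells of muscle also fell, with medians below −3 for endothelial, Schwann cell, tenocyte and erythroid markers and smaller or mixed changes in the other lists. How alike these falls and those of the 8 genes were was not tested. All 13 endothelial markers fell (median log2 fold change −3.58, summed level 282 to 397 CPM in VA-free and 1426 to 3723 CPM in CTRL libraries), as did all 9 Schwann cell markers (−3.89, 484 to 511 CPM and 1068 to 1423 CPM) and 8 of 9 tenocyte markers (−4.84, 45.8 to 76.0 CPM and 713 to 1278 CPM). Of 5 erythroid markers, 4 fell (−3.53, 28.8 to 243 CPM and 1302 to 1909 CPM), and of 12 macrophage markers 4 fell (−1.88, 27.7 to 165 CPM and 194 to 971 CPM). Pericyte and smooth muscle markers were divided, with 6 of 11 lower and 1 higher (−0.73, 1767 to 2046 CPM and 2781 to 3409 CPM), since Rgs5 fell by 6.11 and Notch3 rose by 2.78 on the log2 scale. Of 10 myofiber markers, 5 fell (−0.84, 245 to 303 CPM and 386 to 467 CPM). MuSC markers went up, with 11 of 13 called higher and none lower (1.19), among them the cadherin gene Cdh15, from 269 ± 19.3 CPM to 875 ± 24.5 CPM, and desmin, Des, from 494 ± 98.1 CPM to 1125 ± 99.7 CPM. The part of other cell types in the levels of the 10 genes was not tested.

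**Figure D5:**
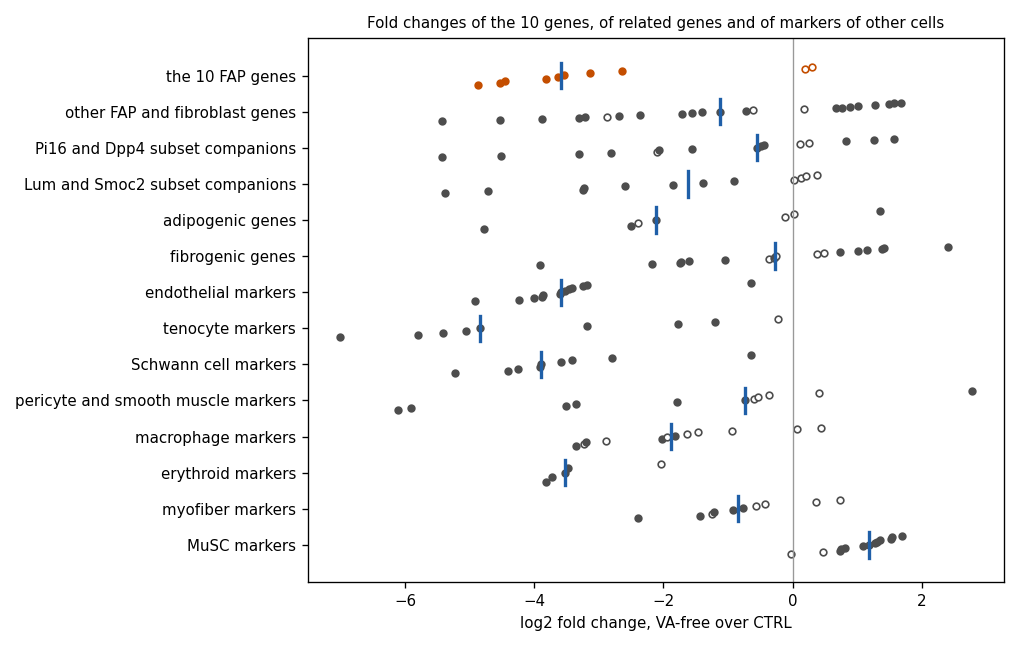
Log2 fold change, VA-free over CTRL, of every tested gene of 14 lists (points, filled where the adjusted p was below 0.05; orange, the 10 FAP genes; blue bar, the median of a list). The 10 genes have a median of −3.59, endothelial markers −3.58, Schwann cell markers −3.89 and tenocyte markers −4.84, other FAP and fibroblast genes spread to both sides of 0, and MuSC markers have a median of 1.19.

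To find genes with a like pattern, log2(CPM + 1) was centred over the 8 libraries and each of 9591 other genes whose mean was 10 CPM or more was compared with the mean profile of the 10 genes by the root mean square (RMS) difference. The nearest were Cxcl14, a chemokine gene of fibroblasts (RMS 0.141), the mitochondrially encoded mt-Atp6 (0.174), Cd59a, an inhibitor of complement (0.202), mt-Co1, also encoded by mitochondria (0.224), and Serpinb1a, a protease inhibitor gene (0.229). Of the members themselves, Clec3b (0.329) and Dpp4 (0.350) lay nearest to this mean and Gsn (1.36) and Dpt (1.42) farthest. The mean includes Gsn and Dpt, which did not fall, and the added 1 shrinks the fall of genes as scarce as Clec3b and Dpp4. For Pdgfra alone the nearest were Cd59a (0.506), Cxcl14 (0.517) and Tmem100 (0.537), and among members Pi16 (0.470). A gene with a like fall between the diets ranks high by this measure, whatever else it shares with the members.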

How the data were processed

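RNA was measured in 8 libraries of 5 mice. The authors pseudo-aligned 75 bp single-end reads from SMART-Seq cDNA to Ensembl 96 transcripts of GRCm38 with Kallisto 0.46.2 and deposited an estimated count (an expected count, not normalized) for each of 118489 transcripts in each library. The deposited TPM values are the same estimates divided by effective length and scaled to a common total, and depth cannot be read from them. Deposited effective lengths, in bases, were the same in every library. The kit does not mark the strand of a read. The methods name tximport and DESeq2 for the study's own comparison.

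The annotation GENCODE M21, which is Ensembl 96, placed 116816 transcripts in genes, whose counts were summed. The 0.647% to 0.756% of a library's counts that it did not place were left out. Libraries of a mouse were added and rounded. Totals of 44831232 to 88650428 per library leave counting error small except for scarce members on the VA-free diet. These are Dpp4 and Clec3b and, less so, Pi16 and Pdgfra. The diets were compared over 3 and 2 mice with edgeR 4.0.16 in R 4.3.3 (TMM, filterByExpr, quasi-likelihood test, Benjamini-Hochberg over 17997 genes, threshold 0.05). An SE is the size of the log2 fold change divided by the square root of F. Mouse and library levels are TMM-normalized CPM. Alternatives included DESeq2 1.42.0 and limma 3.58.1 (voom, and log2 of TPM plus 1 or 0.1), other normalizations and filters, length corrections, other uses of the libraries, a block for the replicate number, and the omission of each mouse or library in turn. The scripts were tested on simulated data.

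The 10 genes, the other gene lists and the tests were chosen with earlier results of these data known, so that adjusted p-values are given over all genes only. The genes named from a list are the 3 with the highest mean level and the 2 called with the largest fold change at a mean of at least 1 CPM, or fewer of these, and all tested PDGF genes. Adipoq, Lep and Aspn were named for reasons given where they appear. The genes nearest in pattern are 5 for the mean profile and 3 for Pdgfra. Motif windows are RefSeq promoter entries, which covered 5 of the 10 genes. The spread among CTRL animals was estimated from 2 mice.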

Additional observations from a re-analysis of the deposited data

Results flagged for a closer look

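Among the 4 libraries of a diet, the library farthest from the others was compared with the range of the group by Dixon's criterion, for each of the 10 genes and each diet. Of the 20 groups, 2 held a library beyond the 95% limit, both times CTRL 2A. Lum was at 259 CPM in CTRL 2A, where the other CTRL libraries were between 100.2 and 117 CPM. Dpp4 was at 13.7 CPM in CTRL 2A, where the others were between 7.11 and 8.19 CPM. Chance gives about 1 such flag in 20 groups, and libraries of 1 mouse are not independent samples. Both genes were called lower on the VA-free diet without CTRL 2A.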

How the results depend on the processing

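The comparison was repeated under 24 alternatives. The 8 genes that fell kept their direction in all 24. Without either CTRL mouse only 1 CTRL mouse remained, so calls of those fits are not given. In every other alternative the 8 stayed called, and the count of members called lower was 8. No member was called higher in the main comparison, whereas with the length trend removed 1 was, with log2(TPM + 1) 2 were and with log2(TPM + 0.1) 2 were. Leaving out 1 mouse or library gave 0 to 1 members called higher, the 1 being Dpt without CTRL mouse 2 (log2 fold change 0.41, adjusted p = 0.0486, over all alternatives 0.00311 to 0.328). Gsn turned to −0.00876 (adjusted p = 0.969) with the length trend removed. The median of the 10 genes moved from −3.59 to −2.48 with log2(TPM + 1), where the added constant shrinks the fold of scarce genes. The median of all genes shifted to 0.19 with log2(TPM + 1) and to 0.35 with log2(TPM + 0.1). The number of all genes called was 7459 and ran from 4476 (without CTRL 2B) to 7744 when 1 mouse or library was left out. Shares of transcripts in TPM in place of counts kept their directions.

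With the replicate number as a block, 5242 genes were called, the 8 members stayed called and the median of the members was −3.85. Deviations of mice that share a number, each from the mean of its diet, did not correlate (r = −0.0219 for number 1 and −0.00447 for number 2, across genes). With only 2 CTRL mice, their deviations mirror each other, so these values cannot decide whether the numbers pair the mice. With 3 and 2 mice and libraries of 1 CTRL animal up to 2.28-fold apart for a member, the sizes of the falls are less certain than their direction.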
